A study of Mus musculus with 12 samples.

Results

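Cytosolic ribosomal protein genes code for the proteins that, with the ribosomal RNAs, build the large (60S) and small (40S) ribosomal subunits. They were taken here by name: the protein-coding rows of the table whose symbol starts with Rpl, Rps, Rplp or equals Rpsa, without the Rps6k kinases. This rule found 103 of 47729 genes. They were 77 core genes (46 of the large and 31 of the small subunit), 9 paralogs or retrocopies with names such as Rpl39l or Rps27rt, 16 predicted copies with names in -ps, and Rps19bp1, whose product binds Rps19 and is no ribosomal protein. A filter of at least 1 FPKM (reads relative to exon length in kilobases and to library depth) in at least 2 libraries kept 95 genes: all 77 core genes, 8 paralogs, 9 copies and Rps19bp1. Rpl3l, a muscle paralog of Rpl3, and 7 copies did not pass.

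A growing cell spends much of its transcription on ribosomal protein messages, and most of the proteins are needed in equal numbers. Their mRNAs are known as TOP mRNAs: transcription starts at a C within a run of pyrimidines (the 5′ terminal oligopyrimidine tract), through which mTOR signalling and LARP1 control their translation and stability. A few ribosomal proteins exist in second versions coded by paralogs, several of which are known from testis or muscle.

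RNA was sequenced from E14Tg2a cells, a line of mouse embryonic stem cells of strain 129/Ola, in 6 groups of 2 libraries each. Wild type cells (WT) were compared with cells homozygous for a 0.7 kb deletion of a Tcf15 regulatory region (delta 0.7 in the labels, delta here), whose library names carry that of a single clone, so that genotype and clone cannot be told apart. Both were sampled in serum-free N2B27 with 2i and LIF (0 h), which keeps the cells naive, and 12 and 24 h after plating on fibronectin, where N2B27 was supplemented with bFGF, KOSR and Activin, which turns them into epiblast-like cells (EpiLC). Whether replicates came from separate cultures is not labelled, so p-values measure only the spread between these libraries, which may be technical.

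The labels' cell states were checked first. Pou5f1 stood at 535 to 1111 FPKM in all 12 libraries, the formative marker Pou3f1 at 0.0997 to 0.282 at 0 h and 48.2 to 89.1 at 24 h, and Tcf15 at 28.8 to 99.4 in WT and 1.04 to 4.44 in delta at 12 and 24 h. Between 9740852 and 17571260 reads per library were recovered from the FPKM values. The replicate 1 libraries at 0 h stood apart from all the others in the ribosomal protein genes, as described below, and all replicate 1 libraries had less mitochondrially encoded RNA (0.447% to 0.647% of reads) than the replicate 2 libraries (1.80% to 2.87%). Summed fibroblast markers stood at 23.7 to 52.99 FPKM in the 3 WT replicate 1 libraries and 3.29 to 8.54 in the other 9. The part of these differences in the results below was not tested.

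The start of a TOP mRNA shows in the RefSeq promoter sequences (build GRCm38.p6), which matched 66 of the 103 genes and 57 of the 77 core genes. Each sequence below runs from 15 bases before the annotated start to 15 bases from it onward, 5′ to 3′, so that the 16th letter is the first base of the RNA. Capitals mark the longest pyrimidine run. The core genes below are shown for their long runs across the start and do not stand for all core genes. In Rplp0 the longest run had 5 bases and began 14 bases before the start. In Rpsa, Rps12 and Rpl13a runs of 5, 7 and 13 bases began within the RNA, at its bases 7, 9 and 3. Those of Rps12 and Rpl13a reach the end of the window and may be longer. Rpl10 had no run of 5 or more in this window. The sequences come from chr2:39005117-39005146 (Rpl35, minus strand), chr14:18270972-18271001 (Rpl15, minus), chr17:27635230-27635259 (Rps10, minus), chr17:33955651-33955680 (Rps18, minus), chr4:86857353-86857382 (Rps6, minus) and chr7:141447636-141447665 (Rplp2, plus).
Rpl35: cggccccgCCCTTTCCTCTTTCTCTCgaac
Rpl15: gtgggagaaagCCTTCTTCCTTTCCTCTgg
Rps10: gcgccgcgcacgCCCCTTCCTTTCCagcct
Rps18: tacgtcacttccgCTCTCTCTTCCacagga
Rps6: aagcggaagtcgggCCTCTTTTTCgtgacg
Rplp2: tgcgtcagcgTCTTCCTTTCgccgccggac

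A run of at least 8 pyrimidines within 30 bases on either side of the start was found in 56.1% of the 57 core genes and in 25.8% of all 27025 genes with a promoter sequence. A start at C followed by at least 4 pyrimidines was found in 22.8% against 3.01%. In the 300 bases of each promoter, the ETS factor core CCGGAAG, read on both strands, was found in 42.1% of core genes against 9.93% of all genes. The YY1 core AAGATGG, on both strands, was found in 15.8% against 7.28%. The TATA box TATAAA (sense strand) was found in 8.77% against 9.77%, and CACGTG, the E-box bound by Myc, in 10.5% against 8.09%. A match is a description of these windows and not a bound site.

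Levels were high and their order was stable. The mean over 12 libraries was at least 1000 FPKM in 22 core genes, 200 to 1000 in 44 and under 200 in 11. The core genes kept nearly the same order of levels in any pair of libraries, with Spearman's rho over the 77 genes between 0.938 and 0.997 (a description across genes, which are not replicates). The 4 highest were Rplp1 (mean 3153 FPKM), Rps12 (3141), Rpl8 (2927), whose product sits near the peptidyl transferase centre, and Rpl13a (2840.1), whose product also serves in an inhibitor complex of inflammatory mRNAs. Rpl24 was the lowest core gene (mean 23.0). It shares 81.7% of its 50-base stretches with transcripts of other genes in GENCODE M21, and reads that fit several genes may have been lost in counting. Over the core genes that share was 0% to 85.5% (median 35.8%), and 21 of 77 were over 50%. Spearman's rho between this share and the level was 0.125 across the core genes.

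The proteins of the large subunit stalk, which recruits the elongation factors, are coded by Rplp0, Rplp1 and Rplp2. In the order WT replicates 1 and 2, then delta replicates 1 and 2, Rplp0 stood at 1821, 1182, 2457 and 974 FPKM at 0 h, at 789, 953, 859 and 772 at 12 h, and at 842, 964, 937 and 736 at 24 h. Every 0 h library was above every later one. Rplp1 ranged from 3233 to 5742 FPKM at 0 h and from 2221 to 2975 later. Rplp2 ranged from 410.5 to 788 at 0 h and from 289 to 368 later. None of the 3 passed the test from 0 h to 24 h (limma, adjusted p = 0.36, 0.31 and 0.24 in WT and 0.18, 0.14 and 0.084 in delta). Rpsa, a 40S protein also known as the laminin receptor precursor, stood at 1103 to 2869 FPKM at 0 h and 899 to 1048 later, again with no overlap, and did not pass either (adjusted p = 0.38 in WT and 0.17 in delta).

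The sum over the genes followed the same pattern. At 0 h the 103 genes took 21.2% and 15.2% of all FPKM in WT replicates 1 and 2 and 21.0% and 15.4% in delta. At 12 h these shares were 13.6% and 12.5% in WT and 14.3% and 13.9% in delta, and at 24 h 13.6% and 13.4% in WT and 14.7% and 12.6% in delta. All 4 naive libraries were thus above all 8 later ones, and the 2 genotypes lay close together within each replicate number at 0 h. As a share of reads, which weights long mRNAs more, the 0 h values were 11.5%, 7.27%, 13.5% and 7.52% in the same order, and the later ones 5.76% to 6.86%. The median FPKM of the core genes was 794 and 470.0 in WT at 0 h and 1159 and 488 in delta, against 349 to 443 in the 8 later libraries. The delta 0 h replicate 1 library holds more FPKM in all (662446, against 335249 to 458270 in the others), so its FPKM stand higher against WT than its share does. In bulk RNA, more cells with high levels and more RNA per cell cannot be told apart.

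**Figure D1:**
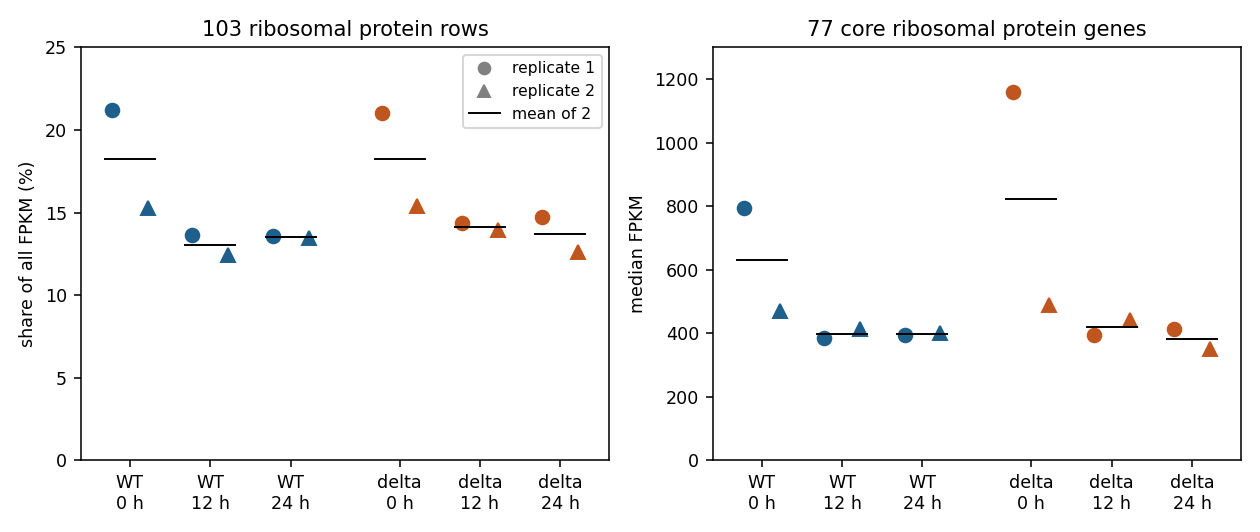
Left, share of all FPKM (%, y axis) taken by the 103 ribosomal protein rows in each library; right, median FPKM of the 77 core genes. Circles are replicate 1, triangles replicate 2, black lines the mean of both; the naive (0 h) libraries lie at 15.2% or more and all later ones at 14.7% or less, and the 0 h replicate 1 libraries stand at 21.2% and 21.0%.

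All core genes pointed down from the naive state. From 0 h to 24 h, 77 of 77 core genes were lower, with a median log2(FPKM + 1) difference of -0.68 in WT (range -0.95 to -0.09) and -0.94 in delta (range -1.34 to -0.33), against medians of -0.03 and -0.05 over all 13981 genes tested. Rescaling to an equal sum of FPKM left 76 of 77 lower in WT (not Rpl29) and 73 in delta (not Rpl4, Rpl28, Rpl29 and Rps26), and quantile normalisation 72 and 63. The comparisons at 12 h and 24 h share the 0 h libraries. From 0 h to 12 h 77 of 77 were also lower, with medians of -0.66 in WT and -0.87 in delta. Hardly any of these differences passed the test. The median standard error (SE) of a core gene was 0.39, and the 2 naive libraries of a genotype differed by a median of 0.74 in WT and 1.24 in delta. In WT, 0 of the 95 genes passed from 0 h to 12 h, where limma (adjusted p under 0.05) called 2.13% of all genes higher and 1.9% lower, and 0 passed from 0 h to 24 h, where it called 5.27% higher and 4.94% lower. With no adjustment, p was under 0.05 for 3 and 6 lower genes and for 0 higher ones. Over all 13981 genes it was under 0.05 for 2347 and 3372, counting both directions. limma with voom weights on recovered reads also called 0 in both. In delta 0 passed from 0 h to 12 h (background 3.55% higher, 3.45% lower; 29 lower at an unadjusted p under 0.05; 0 with voom weights). Of all 13981 genes, 3271 had an unadjusted p under 0.05 over that span in delta and 4259 from 0 h to 24 h, counting both directions. From 0 h to 24 h in delta 3 passed, all lower (background 7.58% higher, 7.8% lower), with 49 lower at an unadjusted p under 0.05 and 4 called with voom weights (Rpl12, Rpl23a, Rps20 and Rps29; background 7.69% higher, 7.97% lower). Without delta 0 h replicate 2, the fit with 1 naive delta library called 85 genes lower at 12 h (background 14% higher, 18.4% lower) and 86 at 24 h (15.9% higher, 20.5% lower). Without delta 0 h replicate 1, 6 were called lower in WT from 0 h to 24 h (background 8.19% higher, 9.34% lower).

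The genes that fell in delta from 0 h to 24 h were Rps20, Rpl23a and Rps27rt. Rps20 (ENSMUSG00000028234, chr4:3831334-3835665, minus strand, GRCm38), a protein of the 40S head, stood at 768 and 407 FPKM at 0 h, 253 and 276 at 12 h, and 242 and 209 at 24 h in delta. It fell by 1.31 ± 0.32 log2 units (SE; limma, adjusted p = 0.025; lower in 2 of 2 pairs). In WT it stood at 516 and 357, then 227 and 286, then 212 and 255, a difference of -0.88 (adjusted p = 0.13). Its groups at 0 h and 24 h did not overlap in either genotype. Without 1 library at a time, the call was lost without either delta 24 h library (adjusted p = 0.099 without replicate 1 and 0.16 without replicate 2), without delta 0 h replicate 1 (-0.85, adjusted p = 0.066), and over all other alternatives it was lost with no filter on low values (0.054). limma's adjusted p ranged from 0.0026 to 0.16.

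Rpl23a (ENSMUSG00000058546, chr11:78180932-78183584, minus strand), a 60S protein at the exit of the peptide tunnel, stood at 1356 and 831 FPKM at 0 h and 562 and 526 at 24 h in delta. It fell by 0.96 ± 0.28 log2 units (SE; limma, adjusted p = 0.049; range over 21 alternatives 0.0026 to 0.24, called in 8). In WT it stood at 1041 and 746, then 538 and 551 (-0.69, adjusted p = 0.17). Without the 2 naive replicate 1 libraries its difference was -0.61 in delta (adjusted p = 0.013) and -0.45 in WT (adjusted p = 0.046). It shares 82.6% of its 50-base stretches with other transcripts, so part of its reads cannot be assigned with certainty.

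Rps27rt (ENSMUSG00000050621, chr9:114982366-114982739, minus strand), a retrocopy of Rps27, stood at 17.2 and 9.23 FPKM at 0 h and 4.74 and 3.14 at 24 h in delta. It fell by 1.49 ± 0.43 log2 units (SE; limma, adjusted p = 0.048; range over 21 alternatives 0.00079 to 0.27, called in 5), from 12 to 60 reads per library. Its level was 0.992% to 2.70% of that of Rps27, and 91.1% of its 50-base stretches are also in Rps27. The copy carries the parent's leader almost from its first base. The starts of both (chr3:90213634-90213663 and chr9:114982725-114982754, both minus strand) are shown with the stretch they share in capitals, which goes on beyond the window to 38 bases in all.
Rps27: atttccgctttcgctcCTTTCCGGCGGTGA
Rps27rt: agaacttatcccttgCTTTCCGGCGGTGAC
Reads of the 2 genes can therefore not be told apart over most of the copy, and its value is uncertain.

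With the replicate number as a block, 10 genes passed in delta from 0 h to 24 h (background 10.4% higher, 10.9% lower), all lower: Rpl10a, Rpl12, Rpl22, Rpl23a, Rpl3, Rpl39, Rps10, Rps20, Rps26-ps1 and Rps27rt. In WT the block gave 1 from 0 h to 12 h (Rps26-ps1; background 3.67% higher, 3.4% lower) and 2 from 0 h to 24 h (Rps26-ps1 and Rps2-ps6; background 7.72% higher, 7.23% lower). The libraries themselves overlapped little: all 4 naive libraries were above all 8 later ones in 61 of 77 core genes, against 10.7% of all genes tested. In WT both naive libraries were above both 12 h libraries in 75 of 77 core genes and above both 24 h libraries in 75 (background 25.8% and 27.4%). In delta these counts were 76 and 71 (background 24.3% and 26.7%), and Rpl27, a 60S protein, overlapped in all 4 comparisons.

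The medians of the 2 replicate numbers differed in size and not in direction. Within replicate 1, the median core gene was lower at 24 h than at 0 h by 1.06 log2 units in WT and 1.49 in delta (77 of 77 lower in each). Within replicate 2 it was lower by 0.28 in WT and 0.46 in delta (77 of 77 lower in each). From 0 h to 12 h in replicate 2 the medians were -0.21 in WT (75 of 77 lower) and -0.24 in delta (77 of 77 lower). The naive replicate 2 libraries alone were above all 8 later libraries in 61 of 77 core genes, against 21% of all genes tested. The fit without the 2 naive replicate 1 libraries assumes that a lone library varies like the other groups. There the medians over the core genes were -0.25 and -0.27 in WT and -0.25 and -0.32 in delta from 0 h to 12 and 24 h. It called 14 genes lower and 2 higher from 0 h to 24 h in delta (background 11.9% higher, 16% lower). In WT it called 1 lower and 1 higher over that span (background 8.52% higher, 11.7% lower). Of the core genes, Rps20 in delta had the largest fall there (-0.85 ± 0.19 SE, limma adjusted p = 0.016).

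**Figure D2:**
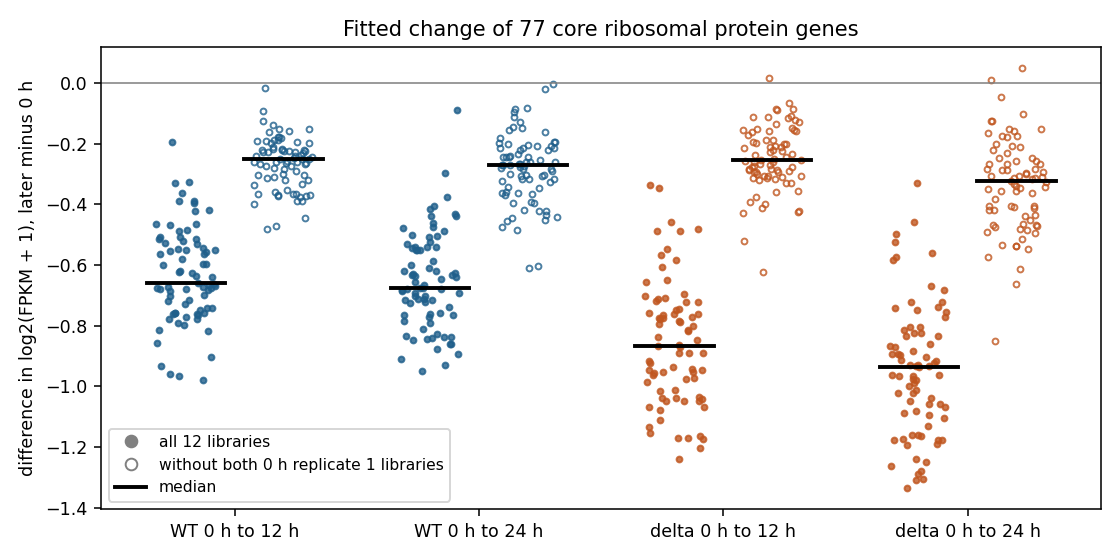
Fitted difference in log2(FPKM + 1), later minus 0 h (y axis), for each of the 77 core genes (points) in 4 comparisons (x axis), with the median as a black line. Filled points use all 12 libraries and open points leave out both 0 h replicate 1 libraries; nearly all points lie below 0 in both, and the medians move from about -0.66 to -0.94 up to -0.25 to -0.32.

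Rescaling every library to the same sum of FPKM moved the median of all genes by more than 0.1: from 0 h to 24 h to 0.17 in WT and 0.37 in delta. On that scale the median ribosomal protein gene was at -0.41 in WT and -0.39 in delta, thus 0.58 and 0.75 below the median gene. In delta from 0 h to 24 h this scaling called Rps20 alone of the group (-0.76, limma adjusted p = 0.019), against a background of 11.6% of all genes higher and 2.8% lower.

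Between 12 h and 24 h no gene of the group passed in either genotype (median core difference -0.02 in WT and -0.09 in delta; limma called 0.25% of genes higher and 0.157% lower in WT and 0.758% and 0.601% in delta). At an unadjusted p under 0.05, 1 was higher in WT and 0 in delta; voom weights called 0. The genotype made no difference that passed. The median core gene was 0.30 log2 units higher in delta than WT at 0 h, 0.06 higher at 12 h and 0.01 lower at 24 h. limma called 0 of 95 genes at each time (background 0% higher, and 0.00715%, 0.0143% and 0.00715% lower) and 0 averaged over times (0% higher, 0.0143% lower). At an unadjusted p under 0.05 only 1 gene was lower, at 24 h, and 0 were called with voom weights. At 0 h the difference was 0.54 in the replicate 1 pair and 0.04 in the replicate 2 pair. No core gene had all WT libraries above or all below the delta libraries at 12 and 24 h (background 1.39% and 1.55%). The difference between genotypes in the change from 0 h was -0.22 at 12 h and -0.29 at 24 h over the core genes (SE of a gene 0.56), with 0 calls (background 0% either way; 0 at an unadjusted p under 0.05; 0 with voom weights). Without delta 0 h replicate 1 the medians over the 95 genes turned from -0.21 and -0.28 to 0.40 and 0.32.

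The replicate difference at 0 h ran through nearly the whole group. At 0 h, 76 of 77 core genes were higher in replicate 1 than in replicate 2 in both genotypes, by a median of 0.74 log2 units in WT (range -0.01 to 1.41) and 1.24 in delta (range -0.02 to 1.91), and by more in delta in 73 of 77. The median over all kept genes was 0 in WT and -0.04 in delta. At 12 and 24 h the core medians of this difference were -0.12 to 0.26. The order of the core genes in this difference was much alike in the 2 genotypes (Spearman's rho 0.89 across 77 genes, which share their lengths and base composition).

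**Figure D3:**
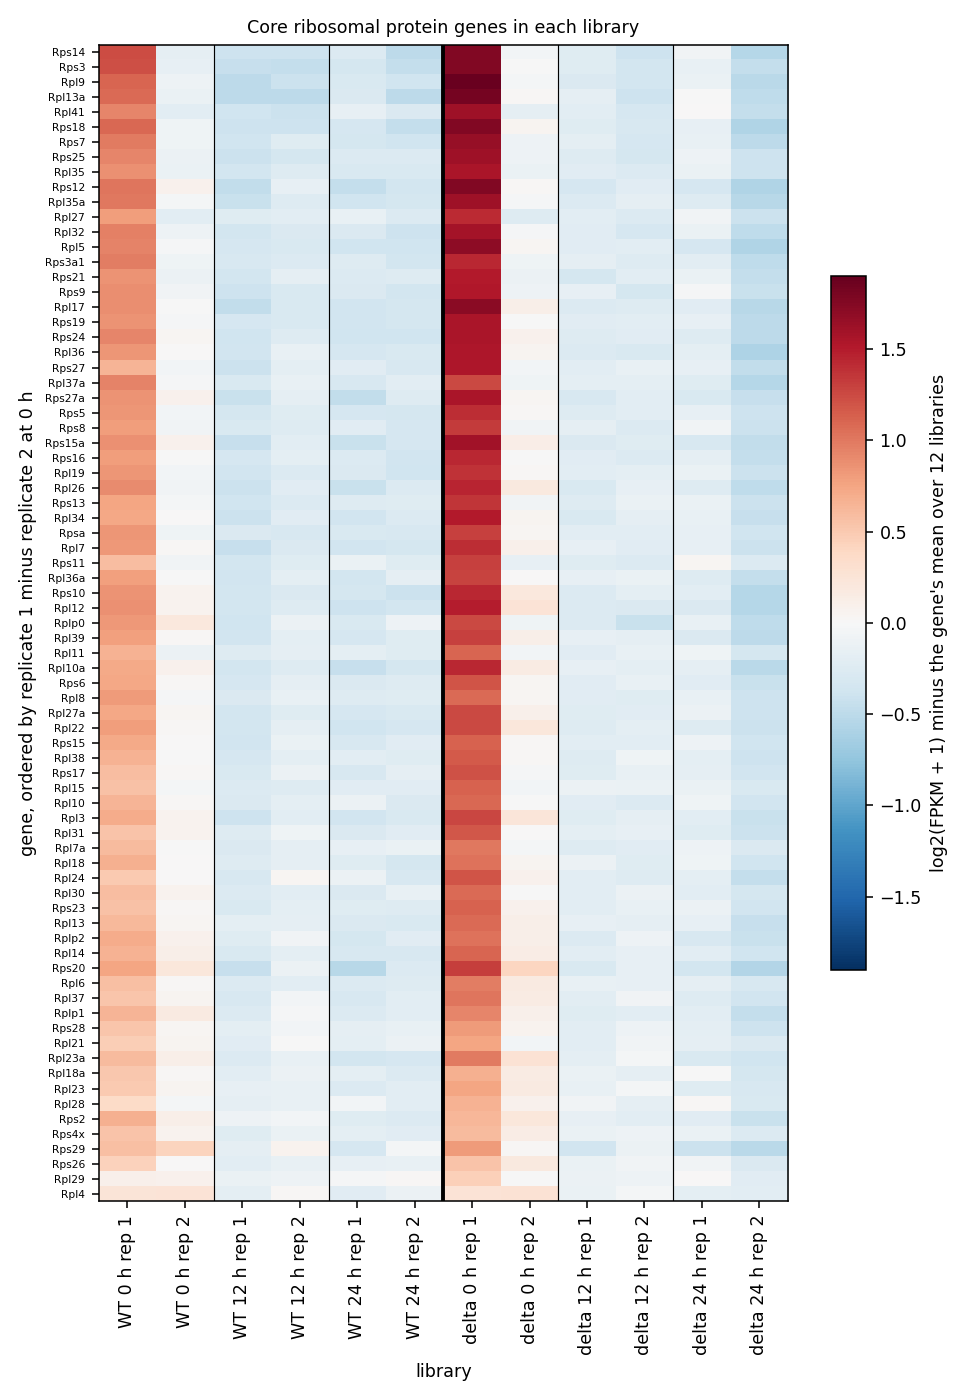
Each row is 1 of the 77 core genes and each column 1 library; the colour is log2(FPKM + 1) minus the gene's mean over the 12 libraries, red above and blue below. The 0 h replicate 1 columns are red in almost every row, the 0 h replicate 2 columns near white, and the later columns pale blue; Rpl4 and Rpl29 at the bottom differ least.

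The largest replicate differences were in Rps14 and Rps3, proteins of the 40S platform and of the mRNA entry site, and in Rpl9 and Rpl13a of the 60S subunit. Rps3 stood at 1075 and 413 FPKM in WT replicates 1 and 2 at 0 h, at 1554 and 458 in delta, and at 333 to 417 in the 8 later libraries. Rps14 stood at 2172 and 814 in WT and 3123 and 889 in delta, against 629.8 to 880.0 later. Rpl9 stood at 646 and 283 in WT and 1106 and 294 in delta, against 211 to 275 later. In all 3, replicate 2 at 0 h lay close to the later cells and replicate 1 far above them. The smallest replicate differences were in Rpl4, Rpl29, Rps26 and Rps29. Rpl4, whose protein lines the peptide tunnel, stood at 2245 and 2264 FPKM in WT and 2269.5 and 2299 in delta at 0 h. At 12 and 24 h it stood at 1631 to 1923, so its naive libraries agreed closely and lay above all later ones. Its difference from 0 h to 24 h was -0.42 ± 0.24 (SE) in WT and -0.46 ± 0.24 in delta (limma, adjusted p = 0.33 and 0.23). Rps26, which lies at the mRNA exit channel, stood at 2089 to 3012 at 0 h and 1721 to 1988 later. Rpl29, a small lysine-rich 60S protein, stood at 182 to 249 at 0 h and 157 to 184 later, with overlap. Rps29 stood at 504 to 866 at 0 h and 348 to 520.3 later, also with overlap.

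Relative to the median core gene of the same library, Rps6, Rps13, Rpl36a and Rpl38 varied least (SD over 12 libraries 0.04 to 0.05 log2 units, median of the core genes 0.13). Rps6, the 40S protein phosphorylated by S6 kinase, stood at 401 to 907 FPKM at 0 h and 293 to 357 later. Rpl38, known for its part in the translation of Hox mRNAs, stood at 470.0 to 1058 and then 358 to 443. Rpl4, Rpl29, Rps26 and Rps14 varied most (SD 0.26 to 0.38).

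Exon length moved with the replicate difference outside the group. This length counts all bases covered by the annotated exons of a gene and can exceed the length of its mRNA. Among other kept protein-coding genes the median of replicate 1 minus replicate 2 at 0 h was 0.35 in WT and 0.62 in delta for exon lengths under 800 bases. It was 0.45 and 0.60 from 800 to 1500 bases, 0.18 and 0.19 from 1500 to 3000, -0.01 and -0.08 from 3000 to 5000, and -0.25 and -0.43 over 5000. Core ribosomal protein genes, with a median exon length of 1586 bases, showed 0.66 to 0.83 in WT and 1.12 to 1.47 in delta in every length class. These medians lay above those of the other genes of the class, whose mRNAs need not be of like length. The class over 5000 bases holds 1 core gene. The part of length in the result was not tested. The rRNA share of reads in delta 0 h replicate 1 was 3.17%, against 0.0709% to 1.24% in the other 11 libraries.

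**Figure D4:**
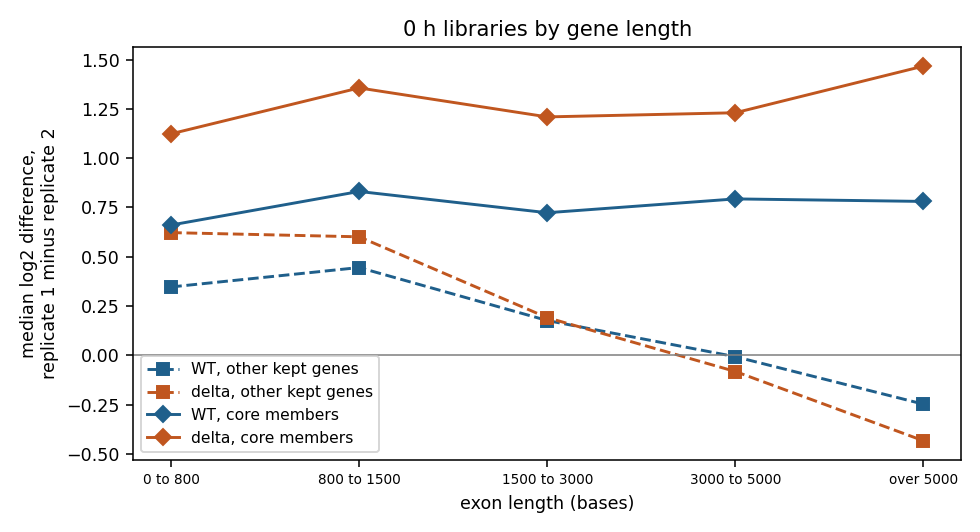
Median log2 difference between replicate 1 and replicate 2 at 0 h (y axis) by exon length of the gene (x axis, bases). Diamonds and solid lines are core ribosomal protein genes, squares and dashed lines the other kept protein-coding genes, blue WT and orange delta; the other genes lie at 0.35 and 0.62 in the shortest class and at -0.25 and -0.43 in the longest, and the core genes stay at 0.66 or more.

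The paralogs did not all follow their relatives. Rpl39l, an autosomal paralog of the X-linked Rpl39 and best known from testis, stood at 87.9 and 37.1 FPKM in WT replicates 1 and 2 at 0 h, 67.2 and 71.6 at 12 h and 72.2 and 84.9 at 24 h. In delta it stood at 186 and 32.3, then 92.5 and 70.4, then 110.0 and 92.5. The groups at 0 h and later overlapped because of the high replicate 1 libraries. Set against Rpl39 in the same library, it was at 30.4% and 21.6% in WT at 0 h, 51.1% and 48.4% at 12 h and 53.6% and 59.4% at 24 h. In delta it was at 44.8% and 17.8%, then 61.3% and 47.0%, then 79.0% and 77.7%. All 4 naive values (17.8% to 44.8%) were below all 8 later ones (47.0% to 79.0%). Such a ratio shows that both genes changed unequally and not which of them did.

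As a level of its own Rpl39l did not pass from 0 h to 24 h (0.45 ± 0.68 SE in WT, limma adjusted p = 0.74; 0.37 ± 0.68 in delta, adjusted p = 0.75). Without the 2 naive replicate 1 libraries it rose from 0 h in all 4 comparisons, by 0.88 at 12 h and 1.06 at 24 h in WT (adjusted p = 0.040 and 0.012) and by 1.29 and 1.61 in delta (adjusted p = 0.0073 and 0.0019). At 12 h it was the only gene of the group called higher in that fit (background 3.38% higher, 4.98% lower in WT and 7.1% higher, 9.97% lower in delta), and Rpl12 in delta the only one called lower (-0.52, adjusted p = 0.043). Without the 0 h replicate 2 library of the genotype the sign turned, to -0.16 in WT and -0.88 in delta at 24 h. It shares no 50-base stretch with the transcript of any other gene, and it had 402 to 1407 reads per library. The starts of both genes (Rpl39, chrX:37085208-37085237, minus strand; Rpl39l, chr16:10170213-10170242, plus strand) share no stretch of more than 8 bases within 300. Capitals mark the longest pyrimidine run.
Rpl39: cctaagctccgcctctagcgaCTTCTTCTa
Rpl39l: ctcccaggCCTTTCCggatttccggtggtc
In Rpl39 the run lies after the annotated start and in Rpl39l it ends at the base before it.

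**Figure D5:**
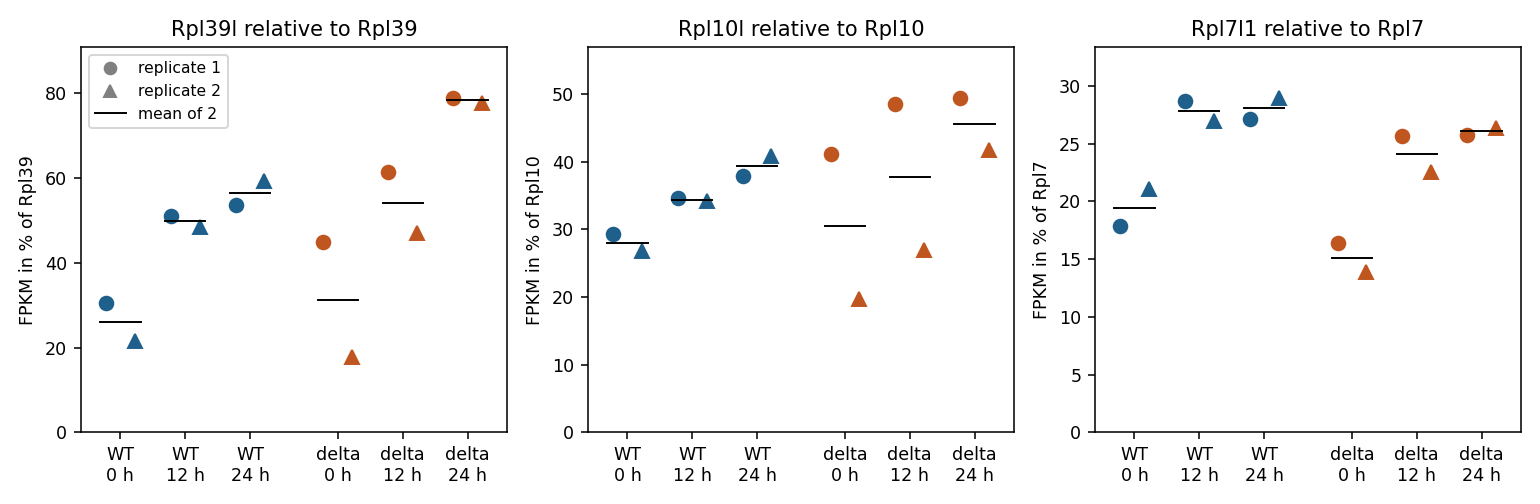
FPKM of Rpl39l, Rpl10l and Rpl7l1 in % of Rpl39, Rpl10 and Rpl7 in the same library (y axes), by genotype and time; circles are replicate 1, triangles replicate 2 and lines the mean of both. For Rpl39l and Rpl7l1 all 4 naive values lie below all 8 later ones; for Rpl10l they overlap.

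Rpl7l1, a relative of Rpl7 known from ribosome assembly, stood at 188 and 126 FPKM in WT and 258 and 88.1 in delta at 0 h and at 115 to 137 later. It was at 13.9% to 21.1% of Rpl7 at 0 h and 22.5% to 29.0% later, with no overlap. Rpl7 itself differed by -0.77 in WT and -1.04 in delta from 0 h to 24 h. A gene that stayed level would thus also stand higher against Rpl7 at 24 h. As a level Rpl7l1 did not pass (-0.24 in WT and -0.25 in delta from 0 h to 24 h, limma adjusted p = 0.78 and 0.73). It passed in delta without the 2 naive replicate 1 libraries (0.52, adjusted p = 0.041). Rpl10l, an autosomal retrocopy of the X-linked Rpl10 that takes its place in male meiosis, stood at 77.7 to 347 FPKM at 0 h and 89.3 to 186 later. It was at 19.8% to 41.1% of Rpl10 at 0 h and 26.98% to 49.5% later, with overlap. Rpl36al ran at 73.0% to 94.5% of its X-linked relative Rpl36a, with overlap between naive and later libraries. Rps27l, known as a p53 target, ran at 63.1% to 96.0% of Rps27, and Rpl22l1 at 31.7% to 65.3% of Rpl22. Both also overlapped between naive and later libraries. None of these 4 passed from 0 h to 24 h (limma, adjusted p at least 0.31 in WT and at least 0.10 in delta).

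The remaining rows of the group were low. Rpl6l stood at 1.92 to 5.52 FPKM and Rpl3l at 0.0610 to 0.814. Rps19bp1 stood at 47.0 to 90.0 at 0 h and 47.0 to 65.9 later, a difference of -0.01 in WT from 0 h to 24 h. Of the copies in -ps, Rpl9-ps6 (mean 17.8 FPKM) and Rps26-ps1 (13.5) were the highest, and 2 were at 0 in all 12 libraries. The lowest that passed the filter were Rps18-ps3, Rpl36-ps3, Rps2-ps6 and Rpl10-ps3, with means of 2.28, 1.17, 0.884 and 0.712 FPKM. The 254 rows that the annotation lists as ribosomal protein pseudogenes held 0.830% to 0.949% of the number of reads of the 103 genes in each library. This share was thus much alike in all libraries.

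Fau codes for a protein of the 40S subunit fused to a ubiquitin-like protein, and its name lies outside the name rule. Fau stood at 1446 and 750.1 FPKM in WT and 2268 and 753 in delta at 0 h, against 595 to 772 later. Rack1, a protein on the 40S head listed as Gnb2l1, stood at 834 and 459.7 in WT and 1224 and 468 in delta, against 305 to 379 later. Like the core genes, both were higher in replicate 1 than in replicate 2 at 0 h in each genotype.

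Other genes of the translation apparatus were described by lists. The medians from 0 h to 24 h are set against -0.68 in WT and -0.94 in delta for the core genes. Of 21 other TOP mRNAs, 19 were lower in each genotype, with medians of -0.40 in WT and -0.56 in delta. Among the 21, 1 was called, Eif3f, lower in delta (-0.58, limma adjusted p = 0.044, background 7.8% lower). In WT its limma adjusted p was 0.075, and it passed there with the replicate block. Of 76 mitochondrial ribosomal proteins, 64 were lower in WT and 71 in delta (medians -0.29 and -0.41). None passed in limma (2 and 7 lower at an unadjusted p under 0.05; 0 with voom weights; with the replicate block Mrpl35 passed in delta). Without the 2 naive replicate 1 libraries their medians turned to 0.01 and 0.11, and limma called 3 higher and 1 lower in WT and 11 higher and 0 lower in delta (background 8.52% higher, 11.7% lower in WT and 11.9% higher, 16% lower in delta). In that fit the medians of the other TOP mRNAs moved to -0.15 and -0.04 (0 and 1 called higher, 3 and 4 lower), and those of the core genes were -0.27 and -0.32. Elongation and termination factors had medians of -0.21 and -0.32, which turned to 0.06 and 0.12 without these libraries. None of their 12 genes passed with all libraries (0 and 1 lower at an unadjusted p under 0.05; 0 with voom weights), and without the naive replicate 1 libraries 1 passed as higher in WT and 3 in delta, and 1 as lower in each. Initiation factors had medians of -0.10 and -0.12. There 1 of 40 fell in WT and 4 in delta (background 4.94% and 7.8% lower). The 4 in delta include Eif3f, which is also among the other TOP mRNAs. Eif2b4, a subunit of the eIF2 exchange factor, fell in both (-0.89 and -0.98, limma adjusted p = 0.015 and 0.0076). With the replicate block 3 fell in WT and 4 in delta (background 7.23% and 10.9% lower), and 1 rose in delta (background 10.4% higher). Without the naive replicate 1 libraries the medians of the initiation factors were 0.01 and 0.04. The lists overlap, so their medians rest partly on the same genes. Beside Eif3f, the other TOP mRNAs include Eef1a1, Eef1b2, Eef1d, Eef1g and Eef2 of the elongation factors. They also include Eif3e, Eif3h, Eif3k, Eif3l and Eif4b of the initiation factors. Npm1 is also listed with the assembly factors and Rack1 with the hosts of small nucleolar RNAs, both described below.

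Ribosome assembly factors lay on the other side of 0, with medians of 0.10 in WT and 0.20 in delta over 89 genes, and 0.17 and 0.35 without the naive replicate 1 libraries. In delta 8 rose, among them Ddx56 (0.86, limma adjusted p = 0.0046) and Nolc1 (0.87, adjusted p = 0.028), and 0 fell, so 8 of 89 against 7.58% of all genes called higher. The replicate block gave 12 (background 10.4% higher) and voom weights gave 6 (background 7.69% higher). Without the naive replicate 1 libraries 31 rose and 1 fell in delta and 8 rose and 0 fell in WT (background 11.9% and 8.52% higher). With all libraries, in WT 0 passed (6 higher at an unadjusted p under 0.05, 0 with voom weights), and with the replicate block 1, Ebna1bp2. Of 19 genes of RNA polymerase I and its factors, 2 rose in delta, Taf1a (0.89, adjusted p = 0.024) and Polr1b (0.80, adjusted p = 0.041). In WT 0 passed (1 higher at an unadjusted p under 0.05, 0 with voom weights), and Taf1a passed with the replicate block. Without the naive replicate 1 libraries 6 rose in delta and 1, Taf1a, in WT. Of 19 listed regulators of ribosomal protein synthesis, Myc alone was called in WT (2.48, limma adjusted p = 0.00073; background 5.27% higher). In delta Myc (2.78, adjusted p = 0.00030) and Mycn (1.19, adjusted p = 0.0055) rose and 0 fell (background 7.58% higher). Mycn did not pass in WT (0.62, adjusted p = 0.099). The replicate block gave 4 higher in delta (background 10.4% higher). A link of these regulators to the ribosomal protein genes was not tested.

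The hosts of small nucleolar RNAs, whose transcripts also start with TOP sequences, had medians of -0.34 and -0.56. Of 13, Snhg5 and Snhg6 fell in WT (background 4.94% lower). With the replicate block Gas5 fell there too (background 7.23% lower), and with voom weights Snhg5 alone fell (675 of all 13981 genes lower). In delta 4 fell (background 7.8% lower), with Gas5 (-1.16, limma adjusted p = 0.015) and Snhg8 (-1.29, adjusted p = 0.018) beside Snhg5 and Snhg6. The replicate block and voom weights called the same 4 in delta (background 10.9% and 7.97% lower). Without the naive replicate 1 libraries the medians of the hosts were -0.56 in WT and -0.74 in delta. These hosts differed from the ribosomal protein genes in the naive replicates. Their median replicate 1 minus replicate 2 at 0 h was -0.91 in WT and -0.53 in delta, against 0.74 and 1.24 for the core genes, 0.68 and 1.04 for the other TOP mRNAs, and 0.59 and 1.06 for the mitochondrial ribosomal proteins. Gas5 stood at 40.7 and 59.0 FPKM in WT replicates 1 and 2 at 0 h and 51.9 and 82.8 in delta, and at 24.8 to 32.9 later, so both naive replicates lay above all later libraries.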

How the data were processed

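Per the labels' protocols, total RNA came from RNeasy Plus columns, and NEBNext Ultra II libraries were prepared from oligo-dT selected mRNA. The authors deposited FPKM values for 47729 genes. The submitters' processing notes list cutadapt, STAR 2.5.2b, featureCounts 1.5.1, edgeR 3.16.5 and build mm10. Strand use and the treatment of reads that fit several genes are not given in the sources used here. FPKM steps gave the depth of each library: whole reads came out within 0.01 for 100% of the 28657 genes above 0, using GENCODE M21 lengths for 80.1% of them. The FPKM scale corresponded to 75.5% to 107% of the recovered reads as library size.

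The 12 libraries (6 groups of 2) entered 1 limma 3.58.1 model (R 4.3.3) on log2(FPKM + 1), which understates changes of low genes, over the 13981 genes that reached 1 FPKM in 2 or more libraries, with group means and a mean-variance trend. P-values are 2-sided and Benjamini-Hochberg adjusted over all genes of a comparison, and a gene is called under 0.05. There were 12 comparisons. Deviations of WT and delta libraries with the same number correlated at 0.70, 0.28 and 0.37 at 0, 12 and 24 h, so the numbers, taken from the sample titles, were held to pair the libraries; a fit with the number as a block is given where it changes a count.

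The members, lists and tests were chosen with earlier results of these data known. Named genes were the stalk genes and Rpsa, all paralogs and retrocopies, called members, the 4 highest and 4 lowest kept members, and the 4 core genes (mean FPKM of at least 20) at each end of the replicate difference at 0 h and of the SD relative to the core median; of other lists up to 4 with the smallest adjusted p. Rpl24, Fau, Rack1, Rpl9-ps6 and genes called by alternatives were named after their values were seen. The start sequences of Rpl35, Rpl15, Rps10, Rps18, Rps6 and Rplp2 were shown for their long runs. Python 3.11.15, pandas and matplotlib were used.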

Additional observations from a re-analysis of the deposited data

Results flagged for a closer look

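From 12 h to 24 h, Rpl36a and Rpl6l were higher in both WT replicate pairs and lower in both delta pairs. The log2 changes of Rpl36a were 0.0053 and 0.019 in the WT pairs and -0.094 and -0.32 in the delta pairs. Those of Rpl6l were 0.0088 and 0.28 in WT and -0.011 and -0.46 in delta. The difference between genotypes was not tested for this pattern, and several of these changes lie close to 0.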

How the results depend on the processing

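Each group holds 2 libraries, and the 0 h replicates differ most, so the counts of called genes depend on how this spread is treated. Leaving out 1 library at a time gave 0 to 85 called genes from 0 h to 12 h and 0 to 86 from 0 h to 24 h in delta, both highest without delta 0 h replicate 2, and 0 to 6 from 0 h to 24 h in WT, highest without delta 0 h replicate 1. It gave 0 in the other 9 comparisons. The median over the genes in delta from 0 h to 24 h then ran from -1.56 to -0.31, in delta from 0 h to 12 h from -1.47 to -0.25, in WT from 0 h to 24 h from -1.001 to -0.27 and in WT from 0 h to 12 h from -1.01 to -0.25. Low genes such as Rps27rt rest on few reads.

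With the replicate number as a block, called genes numbered 1 and 2 in WT (0 h to 12 h and to 24 h) and 10 in delta from 0 h to 24 h. With a block within each time they numbered 52 and 65 in WT and 81 and 84 in delta (1513, 2217, 2483 and 3087 lower among all 13981 genes). Times are compared between such blocks, so the deviation that same-numbered libraries share at a time is left out of the error, and these counts give no support for a change. The single block changed no other count of members. Without both 0 h replicate 1 libraries the 4 counts were 1, 2, 2 and 16. With no filter 1 was called in WT from 0 h to 12 h and 0 in delta from 0 h to 24 h. In the latter comparison a minimum of 5 FPKM gave 1 (795 of 9051 genes lower in all), the equal sum of FPKM 1 (391 of 13981), and quantile normalisation 7 of the 95 (1105 of 13981, near the same share); the last gave 1 from 0 h to 12 h in delta (505 of 13981). As shares of reads the group took 11.5%, 7.27%, 6.04%, 6.45%, 6.27% and 6.38% in WT (0, 12 and 24 h, replicates 1 and 2) and 13.5%, 7.52%, 6.51%, 6.50%, 6.86% and 5.76% in delta.

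Some named genes changed sign from 0 h to 24 h, and the cause was not tested. Scaling moves all genes: the median of all genes was 0.17 in WT and 0.37 in delta with an equal sum of FPKM, and 0.59 and 0.94 with the median core gene set equal. With an equal sum of FPKM these were, in WT, Rpl10l (0.21), Rpl29 (0.16), Rpl7l1 (0.010), Rps18-ps3 (0.15) and Rps19bp1 (0.23), and in delta Rpl10-ps3 (0.13), Rpl10l (0.46), Rpl29 (0.21), Rpl4 (0.087), Rpl7l1 (0.29), Rps19bp1 (0.26) and Rps26 (0.022). With quantile normalisation they were, in WT, Rpl10l (0.20), Rpl29 (0.12), Rplp1 (0.18), Rps19bp1 (0.18) and Rps26 (0.020), and in delta Rpl10l (0.30), Rpl13a (0.022), Rpl4 (0.40), Rpl7l1 (0.11), Rpl8 (0.42), Rplp1 (0.53), Rps26 (0.39) and Rpsa (0.032). Without both 0 h replicate 1 libraries they were, in WT, Rpl10l (0.33), Rpl36-ps3 (0.45), Rpl7l1 (0.047) and Rps19bp1 (0.21), and in delta Rpl10-ps3 (0.061), Rpl10l (0.99), Rpl7l1 (0.52), Rps19bp1 (0.19) and Rps27l (0.20). With the median core gene set equal, signs were compared for the named paralogs only, and other named genes were not listed. The values of paralogs that turned all lay below that median of all genes, so their sign says nothing of these genes. They were, in WT, Rpl10l (0.58), Rpl36al (0.14), Rpl6l (0.33), Rpl7l1 (0.38) and Rps27l (0.13), and in delta Rpl10l (0.90), Rpl36al (0.27), Rpl6l (0.20), Rpl7l1 (0.73) and Rps27l (0.30).

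Leaving out 1 library at a time turned the sign in WT for Rpl10-ps3 (-0.28 to 0.0060), Rpl10l (-0.40 to 0.33), Rpl36-ps3 (-1.29 to 0.45), Rpl39l (-0.16 to 1.06), Rpl7l1 (-0.52 to 0.047), Rps18-ps3 (-0.27 to 0.21) and Rps19bp1 (-0.24 to 0.21), and in delta for Rpl10-ps3 (-0.20 to 0.061), Rpl10l (-1.16 to 0.99), Rpl39l (-0.88 to 1.61), Rpl7l1 (-1.02 to 0.52), Rps19bp1 (-0.73 to 0.19) and Rps27l (-1.57 to 0.20).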
